A study of Homo sapiens with 6 samples.

Results

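Glycolysis splits glucose into pyruvate in the cytosol, with a small gain of ATP, and lactate dehydrogenase then turns pyruvate into lactate and restores the NAD+ that the route uses. Many tumours run this route fast even where oxygen is present. Several of its genes are textbook targets of the hypoxia-inducible factors (HIF) and of MYC. Most steps are served by isozymes, which are products of different genes that catalyse the same reaction but differ in kinetics, regulation and tissue of origin. The 10 genes described here are SLC2A1, HK1, HK2, PFKL, PFKP, ALDOA, PGK1, ENO1, PKM and LDHA. They are the rows of the deposited count table that carry these gene names, 10 of 78932 rows. The rule that picks them goes by name and uses no measured value, but the names were chosen with earlier results of these data known.

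The RNA comes from T24, an established cell line from a human bladder carcinoma. The siNC group (n = 3) is transfected with a control siRNA and the siTRIM28 group (n = 3) with siRNA against TRIM28, a chromatin corepressor that also acts as a ligase for the small protein modifier SUMO. All 6 libraries thus come from cells that received an siRNA. Their titles give T24 cells, the group and a replicate number, and they tell no batches apart. Which TRIM28 siRNA was used and how long the cells were kept after transfection are not given in the sources used here. Poly(A) RNA is what was sequenced, so protein, enzyme activity, glucose uptake and lactate are not analysed here, and in bulk RNA fewer cells of a type and less RNA per cell cannot be told apart.

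The libraries hold 11712623 to 14018052 counts. TRIM28 has 102, 101 and 108 CPM (counts scaled to a common library size and corrected for composition by the TMM method) in siNC replicates 1, 2 and 3 and 9.28, 8.11 and 9.21 in the siTRIM28 replicates, so the groups are far apart and the labels hold. Replicates are not equally close, since siNC 1 and 2 and siTRIM28 2 and 3 differ by little more than sampling noise (chi-square per degree of freedom 1.08 and 1.24, against 4.59 to 6.99 for the other pairs within a group). Of the markers for an epithelial line, KRT8 and KRT18 are expressed, whereas KRT19, EPCAM, CDH1 and 5 of 8 urothelial markers (UPK1B, UPK2, UPK3A, KRT5 and GATA3) are below the count minimum and VIM, a mesenchymal filament gene, has 1102 ± 12.0 CPM in siNC (mean ± SD, n = 3). The 3 mesenchymal markers sum to 1154 to 1179.6 CPM in siNC and 1399 to 1497 CPM in siTRIM28, with VIM the only member of that list past the test (edgeR, adjusted p under 0.05). The 6 epithelial markers sum to 189 to 197 CPM in siNC and 207 to 215 CPM in siTRIM28, with KRT7 (log2 fold change 0.56) and KRT8 (0.14) called higher by this test. The 8 urothelial markers sum to 10.3 to 10.7 and 12.4 to 13.3 CPM, with UPK1A called higher at 0.874 ± 0.490 and 3.41 ± 0.658 CPM. The part of these differences in the results below was not tested. Markers of leukocytes (PTPRC, CD3E and CD14), endothelium and red cells are at or near 0 in both groups. CD68, which many cell types express, is an exception at 348 ± 2.38 and 351 ± 12.1 CPM.

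Promoter windows are shown first because both HIF and MYC read short motifs in such regions. The windows are the 250 bases before an annotated start in RefSeq (GRCh38.p14), where all 10 genes are found, with 23 windows in all. Shown are the gene with the largest rise (SLC2A1), that with the largest fall (PFKL) and 3 textbook HIF targets (PGK1, LDHA and HK2). They run 5′ to 3′ on the strand of the gene, and capitals mark ACGTG or GCGTG, the core of the hypoxia response element, on either strand.
SLC2A1 (chr1:42958869-42959118, minus strand): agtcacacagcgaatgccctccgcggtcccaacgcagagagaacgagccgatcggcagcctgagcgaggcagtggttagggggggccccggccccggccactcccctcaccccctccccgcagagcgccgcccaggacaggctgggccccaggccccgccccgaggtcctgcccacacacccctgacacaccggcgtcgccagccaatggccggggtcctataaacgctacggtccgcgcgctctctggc
PFKL (chr21:44299803-44300052, plus strand): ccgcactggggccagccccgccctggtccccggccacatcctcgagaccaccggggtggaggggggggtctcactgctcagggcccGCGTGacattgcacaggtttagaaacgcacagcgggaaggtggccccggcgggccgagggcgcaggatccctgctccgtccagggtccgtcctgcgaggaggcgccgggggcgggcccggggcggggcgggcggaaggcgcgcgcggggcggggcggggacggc
PGK1 (chrX:78103998-78104247, plus strand): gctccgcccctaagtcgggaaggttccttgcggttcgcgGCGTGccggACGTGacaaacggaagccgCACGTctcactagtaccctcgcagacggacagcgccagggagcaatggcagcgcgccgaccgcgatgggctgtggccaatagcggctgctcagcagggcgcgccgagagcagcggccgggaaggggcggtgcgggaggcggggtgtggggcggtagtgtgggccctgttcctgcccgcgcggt
LDHA (chr11:18394313-18394562, plus strand, the first of its 2 windows): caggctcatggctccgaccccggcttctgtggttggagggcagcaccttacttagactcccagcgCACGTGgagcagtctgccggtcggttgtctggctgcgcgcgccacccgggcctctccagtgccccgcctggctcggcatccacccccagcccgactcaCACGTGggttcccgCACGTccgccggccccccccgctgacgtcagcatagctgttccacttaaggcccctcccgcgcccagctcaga
HK2 (chr2:74833877-74834126, plus strand, the first of its 2 windows): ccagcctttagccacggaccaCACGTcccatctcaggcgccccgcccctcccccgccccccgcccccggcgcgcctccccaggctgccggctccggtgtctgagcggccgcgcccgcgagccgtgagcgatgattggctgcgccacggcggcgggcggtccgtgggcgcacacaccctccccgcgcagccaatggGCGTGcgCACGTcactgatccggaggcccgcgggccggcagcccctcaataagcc

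The LDHA window holds 5 matches to ACGTG, counted on both strands, of which 4 are the 2 copies of CACGTG (the E-box that MYC binds, which reads the same on both strands). The PGK1 and HK2 windows each hold 2 matches to ACGTG and 1 to GCGTG. The PFKL window has 1 match to GCGTG and 7 to the GC box GGGCGG, and the SLC2A1 window has 2 GC boxes and neither form of the hypoxia core. Over all windows of the 10 genes, ACGTG is found in 8 of 23 windows and in 5 genes (HK2, PFKP, ALDOA, PGK1 and LDHA), where 18.5% of all 35116 windows in the table hold it. GCGTG is found in 8 windows of 7 genes (32.2% of all windows), CACGTG in 3 windows of 3 genes (6.34%) and GGGCGG in 13 windows of all 10 genes (42.6%). The percentages are shares of windows, not of genes, and a gene with several windows (7 for HK1) has more chances of a match. Windows of the same gene can overlap, and a match is a string of letters, not a bound site. ALDOA, which falls after silencing, holds ACGTG in all 3 of its windows, and PFKL, which also falls, has 0 matches to it. A relation between motif and direction was not tested.

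Most of the 10 genes, though not every step of the route, are higher in the siTRIM28 libraries. All 10 genes differ between the groups at an adjusted p under 0.05 (edgeR's quasi-likelihood test, Benjamini-Hochberg adjustment over the 18474 genes tested), with 8 higher and 2 lower. The same threshold calls 41.8% of all genes tested, 21.3% as higher and 20.5% as lower. Among genes at least as abundant as the lowest of the 10, 56.8% are called and 26.1% are called higher, and among genes with at least 100 CPM these shares are 60.9% and 28.5%. Log2 fold changes (log2FC) are siTRIM28 minus siNC throughout, and their median is 0.42 over the 10 genes, beside 0.02 for all genes tested. When an absolute log2FC of 0.58 or more is also asked for, SLC2A1, PFKP and PGK1 remain higher and PFKL lower, where 17% of all genes are called (9.51% of all genes higher, 7.51% lower). For each of the 10 genes both groups are clear of each other in every library, as they are for 52% of all genes tested. The permutation p (exact, two-sided) is 0.1 for each of the 10, and 3 libraries against 3 cannot give less.

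**Figure D1:**
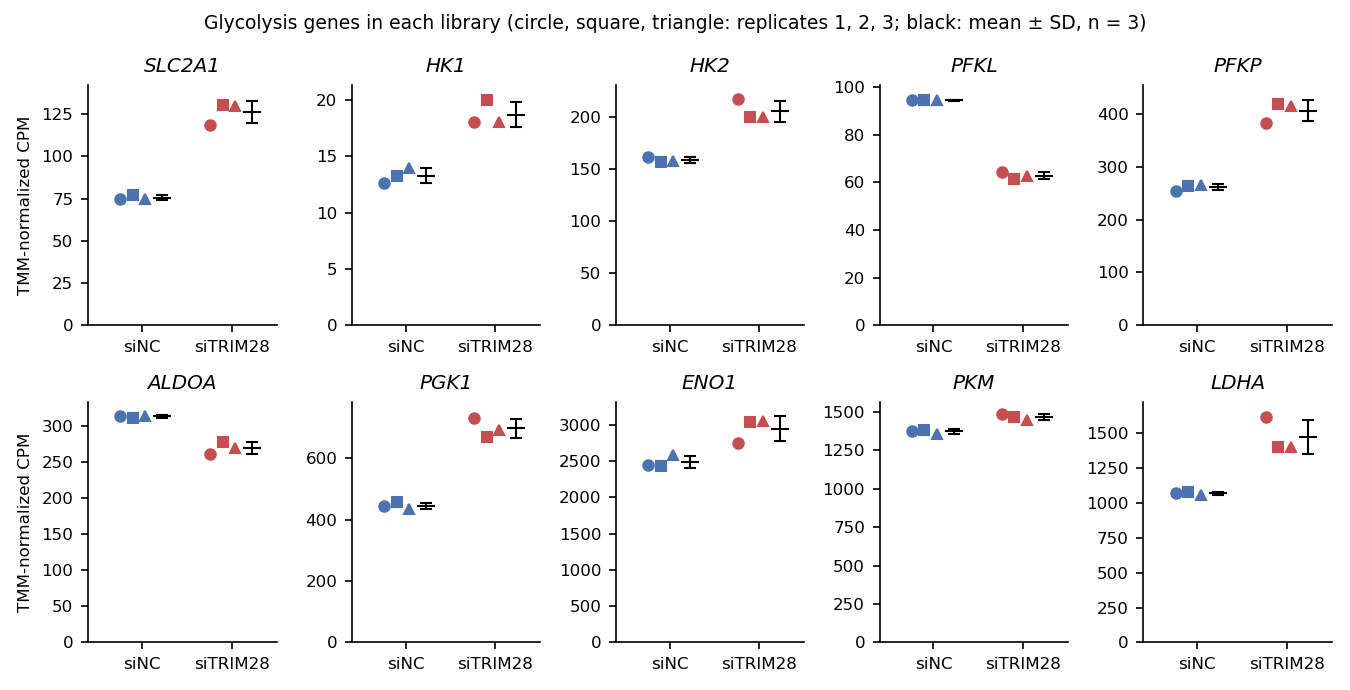
TMM-normalized CPM of the 10 genes in the 3 siNC libraries (blue) and the 3 siTRIM28 libraries (red), with the mean and SD of each group in black and each axis starting at 0. PFKL and ALDOA sit lower in siTRIM28, the other 8 genes sit higher, and in PKM the gap is small beside its level of 1357 to 1485 CPM.

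Glucose enters through the transporter GLUT1, the product of SLC2A1 (ENSG00000117394, chromosome 1, 42925353 to 42958868, minus strand). SLC2A1 has 74.7, 77.1 and 74.7 CPM in the siNC replicates and 119, 131 and 129.7 CPM in the siTRIM28 replicates. Every siTRIM28 library lies above every siNC library, and the gap is several times the spread within either group. The rise is 1.67-fold, a log2FC of 0.74 (SE 0.0515, adjusted p = 6.05e-07, edgeR's quasi-likelihood test), and it is the largest of the 10. SLC2A3 encodes GLUT3, a transporter with a high affinity for glucose that is best known from neurons. Its level goes from 2.84 ± 0.176 to 9.81 ± 1.11 CPM (mean ± SD, n = 3), a log2FC of 1.79 (adjusted p = 2.10e-06, same test). Despite this larger fold, GLUT1 remains the main transcript of the pair. In CPM per kilobase of gene length, the scale used here for any comparison between genes, SLC2A3 makes up 3.27% ± 0.245 of the pair in siNC and 6.55% ± 0.922 in siTRIM28.

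Hexokinases trap glucose in the cell as glucose 6-phosphate. HK2, the inducible isozyme that many tumours express, is the dominant hexokinase of these cells (ENSG00000159399, chromosome 2, 74834127 to 74893359, plus strand). It has 162, 156 and 157 CPM in siNC and 217, 199.5 and 199.7 CPM in siTRIM28. The siTRIM28 libraries are all higher, with replicate 1 above the other two. The log2FC is 0.37 (SE 0.0457, adjusted p = 4.99e-05, edgeR). A gene annotated on the opposite strand lists 9.60% as many counts as HK2. HK1, the isozyme of most normal tissues (ENSG00000156515, chromosome 10, 69269984 to 69401443, plus strand), is read at 12.7, 13.3 and 13.96 CPM in siNC and at 18.1, 20.02 and 18.1 CPM in siTRIM28. It rises as well, by 0.49 on the log2 scale (SE 0.0765, adjusted p = 0.000314, edgeR). The balance of both isozymes is not distinguishable between the groups. HK2 takes 92.9% ± 0.365 of the hexokinase CPM per kilobase in siNC and 92.0% ± 0.564 in siTRIM28, and the log2 ratio of HK2 to HK1 differs by −0.11 (exact permutation test, two-sided, p = 0.4). HK3 and HKDC1 are below the count minimum. GPI, which converts glucose 6-phosphate to fructose 6-phosphate, goes from 106 ± 1.22 to 150 ± 13.0 CPM (log2FC 0.50, adjusted p = 3.96e-05, edgeR). An annotated gene on the same strand as GPI lists 21.2% as many counts.

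Phosphofructokinase commits the sugar to glycolysis, and its subunits move apart in these libraries. PFKP, the platelet-type subunit (ENSG00000067057, chromosome 10, 3066333 to 3137715, plus strand), has 254, 264 and 265 CPM in siNC and 383, 419 and 416 CPM in siTRIM28. PFKL, the liver-type subunit (ENSG00000141959, chromosome 21, 44300051 to 44327373, plus strand), has 94.3, 94.5 and 94.4 CPM in siNC and 64.2, 61.3 and 62.7 CPM in siTRIM28. The groups of both genes are well separated, in opposite directions, and PFKL is the tightest of the 10 in siNC. PFKP rises by 0.64 (SE 0.0446, adjusted p = 6.33e-07) and PFKL falls by 0.59 on the log2 scale (SE 0.0476, adjusted p = 1.94e-06, both from edgeR's quasi-likelihood test). PFKM, the muscle-type subunit, is at 61.2 ± 2.76 and 66.8 ± 2.52 CPM with overlapping groups (log2FC 0.13, adjusted p = 0.0944, edgeR). The log2 ratio of PFKP to PFKL is 1.63, 1.68 and 1.69 in the siNC libraries and 2.77, 2.97 and 2.93 in the siTRIM28 libraries, a difference of 1.22. The ratio of PFKM to PFKL differs by 0.72. Both ratios separate the groups without overlap, and both have an exact permutation p of 0.1 (two-sided), 0.117 after adjustment over the 7 isozyme pairs compared. In the make-up of the family, PFKP goes from 63.9% ± 0.324 to 76.2% ± 1.23 of the CPM per kilobase, PFKL from 20.1% ± 0.406 to 10.3% ± 0.574 and PFKM from 16.0% ± 0.452 to 13.5% ± 0.705. The summed family rises 1.30-fold. No annotated gene overlaps PFKL, while genes on the opposite strand list 6.57% as many counts as PFKP.

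Aldolase cleaves fructose 1,6-bisphosphate into triose phosphates. ALDOA is the isozyme of muscle and of most growing cells (ENSG00000149925, chromosome 16, 30064164 to 30070417, plus strand), and it is the other gene of the 10 that falls. It has 314, 311 and 314 CPM in siNC and 261, 278 and 269.9 CPM in siTRIM28. The fall is small but clear of the replicate spread, with a log2FC of −0.22 (SE 0.0394, adjusted p = 0.000954, edgeR). A same-strand annotated gene (ENSG00000285043) that spans the locus lists 95.2% as many counts as ALDOA, so reads of shared exons appear to be listed for both. ALDOC, the brain-type isozyme, is rare at 0.969 ± 0.194 CPM in siNC and 3.36 ± 0.203 CPM in siTRIM28 (log2FC 1.79, adjusted p = 5.49e-05, edgeR). It makes up 0.452% ± 0.0894 of aldolase CPM per kilobase in siNC and 1.79% ± 0.0515 in siTRIM28. The summed aldolases are the only family of the 8 compared whose total is lower, at 0.873 of the siNC level. TPI1, which interconverts the triose phosphates, rises from 714 ± 6.31 to 987 ± 9.75 CPM (log2FC 0.47, adjusted p = 6.66e-07, edgeR).

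The later steps yield ATP, and here the data hold both a clear rise and the deepest fall of the route. GAPDH, which oxidises the triose phosphate and serves as a common reference gene, has 2979, 2915 and 3128 CPM in siNC and 2903, 3682 and 3655 CPM in siTRIM28. Its siTRIM28 replicate 1 lies below all siNC libraries, and the gene does not pass the test (log2FC 0.18, adjusted p = 0.0676, edgeR). Without that library the log2FC is 0.29 (adjusted p = 1.02e-08, edgeR). An opposite-strand annotated gene lists 19.3% as many counts as GAPDH. PGK1 makes the first ATP of this phase (ENSG00000102144, chromosome X, 77910739 to 78126267, plus strand). It has 443, 456 and 434 CPM in siNC and 731, 669 and 690.3 CPM in siTRIM28. All siTRIM28 libraries are far above siNC, and the rise is 1.57-fold (log2FC 0.65, SE 0.0421, adjusted p = 3.53e-07, edgeR). PGAM1, the phosphoglycerate mutase that follows, goes the other way. It has 218, 213 and 212 CPM in siNC and 85.6, 98.1 and 95.8 CPM in siTRIM28. This log2FC of −1.20 (SE 0.0533, adjusted p = 2.25e-08, edgeR) is the lowest among the 26 genes tested of the route. PGAM4, an intronless copy of PGAM1 that lies within PGK1 on the opposite strand, is also lower at −0.78 (adjusted p = 0.00624, edgeR), and reads of both copies may not be told apart.

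Enolase dehydrates phosphoglycerate to phosphoenolpyruvate. ENO1, the form of most tissues (ENSG00000074800, chromosome 1, 8861000 to 8879190, minus strand), has 2441, 2435 and 2587 CPM in siNC and 2745, 3040.2 and 3057 CPM in siTRIM28. It is the most abundant of the 10 genes and lies in the top 0.455% of all genes tested by CPM per kilobase in siNC. Its groups are close but do not overlap, and the log2FC is 0.24 (SE 0.0451, adjusted p = 0.00103, edgeR). ENO2, the neuronal enolase, rises far more, with 69.2, 69.7 and 70.8 CPM in siNC and 205, 203 and 204 CPM in siTRIM28. These libraries barely vary within a group, and the log2FC is 1.55 (SE 0.0414, adjusted p = 4.59e-10, edgeR). A same-strand neighbour, LRRC23, overlaps ENO2 and lists 19.2% as many counts. ENO3, the muscle enolase, is at 55.9 ± 1.74 and 53.8 ± 3.21 CPM (log2FC −0.06, adjusted p = 0.509, edgeR). ENO1 still makes up 94.2% ± 0.191 of the family in siNC and 90.4% ± 0.638 in siTRIM28, with ENO2 going from 3.23% ± 0.0695 to 7.64% ± 0.450.

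Pyruvate kinase ends the route with a further ATP. PKM (ENSG00000067225, chromosome 15, 72199029 to 72231819, minus strand) has 1378, 1385 and 1357 CPM in siNC and 1485, 1464 and 1448 CPM in siTRIM28. The groups do not overlap, but the distance is only 6.72% of the siNC level (log2FC 0.09, SE 0.0319, adjusted p = 0.0338, edgeR). The call is lost with DESeq2 (adjusted p = 0.214) and in 5 of the 6 fits that leave out a library. The M1 and M2 forms of PKM arise by splicing of the same gene, and counts per gene do not separate them. A gene annotated on the opposite strand (ENSG00000303314) lists 59.3% as many counts as PKM, and the strand setting of the counting is not given. The liver and red cell gene PKLR is below the count minimum.

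Lactate dehydrogenase forms lactate from pyruvate. LDHA, the M subunit (ENSG00000134333, chromosome 11, 18394560 to 18408218, plus strand), has 1069, 1081 and 1059 CPM in siNC and 1614, 1402 and 1401 CPM in siTRIM28. All siTRIM28 libraries are higher, replicate 1 most so, and the log2FC is 0.46 (SE 0.0514, adjusted p = 2.52e-05, edgeR). LDHB, the H subunit, is at 1069.6 ± 25.6 and 1073 ± 24.2 CPM, with a log2FC of 0.00 and a 95% interval from −0.07 to 0.08. A same-strand annotated gene lists 99.7% as many counts as LDHB. The log2 ratio of LDHB to LDHA is 0.997, 0.977 and 1.07 in siNC and 0.388, 0.654 and 0.640 in siTRIM28, a difference of −0.45 (exact permutation test, two-sided, p = 0.1, adjusted 0.117). LDHA accordingly goes from 33.1% ± 0.733 to 40.4% ± 2.51 of the family.

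**Figure D2:**
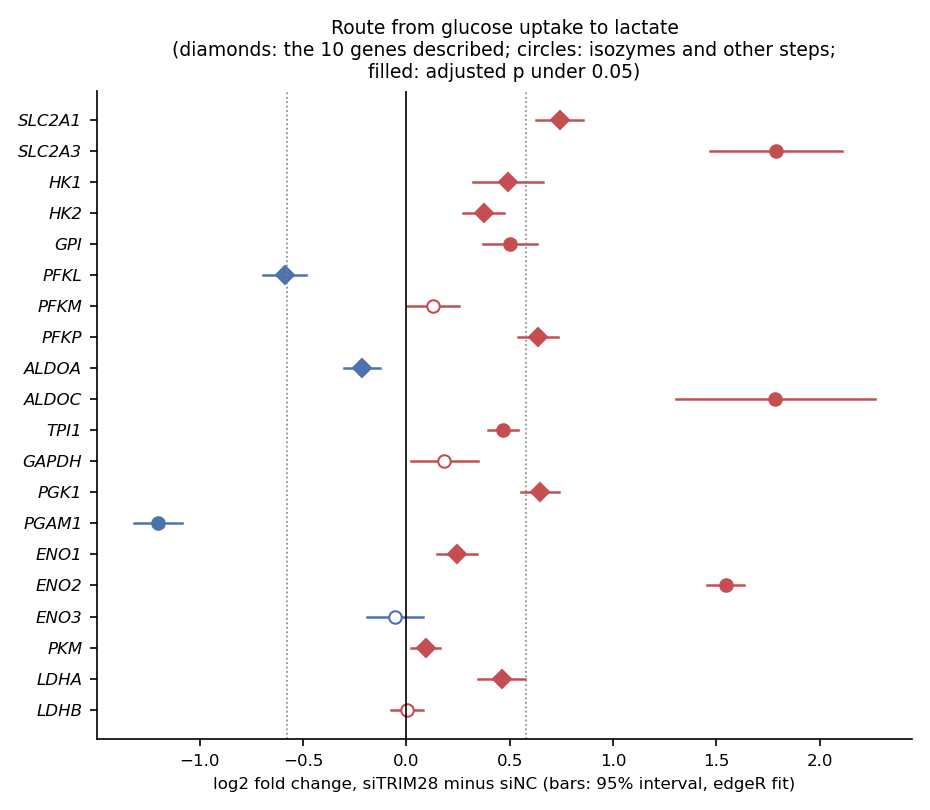
Log2FC (siTRIM28 minus siNC) with its 95% interval from the edgeR fit, for the 10 genes (diamonds) and the isozymes and missing steps of the route (circles), in the order from glucose uptake to lactate. Filled symbols have an adjusted p under 0.05, dotted lines stand at −0.58 and 0.58, and PGAM1 at −1.20 lies opposite to the neighbouring PGK1 at 0.65 and ENO2 at 1.55.

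Across the 7 isozyme pairs, the partner with the lower CPM per kilobase in siNC gains on the other in the transporter (SLC2A3 over SLC2A1, a difference in log2 ratio of 0.99), aldolase (ALDOC over ALDOA, 1.87) and enolase (ENO2 over ENO1, 1.30) families, and likewise for PFKM over PFKL (0.72) and LDHA over LDHB (−0.45 for the ratio of LDHB to LDHA). PFKP, the more abundant of its pair, gains on PFKL. All pairs except HK2 and HK1 separate the groups, each with an exact permutation p of 0.1 (two-sided, adjusted 0.117), and no pair can pass 0.05 with 3 libraries against 3. Single genes separate the groups for 52% of all genes tested, and no such share was computed for pairs of genes. The pairs PFKP/PFKL and PFKM/PFKL share PFKL, so they are not separate cases. Ratios of this kind are taken within a library and so do not depend on the scaling between libraries. The shares do depend on gene length. With the median length of protein-coding transcripts in GENCODE v29, a choice made after seeing the data, the change in the share of PFKL is −15.2 rather than −9.83 percentage points.

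**Figure D3:**
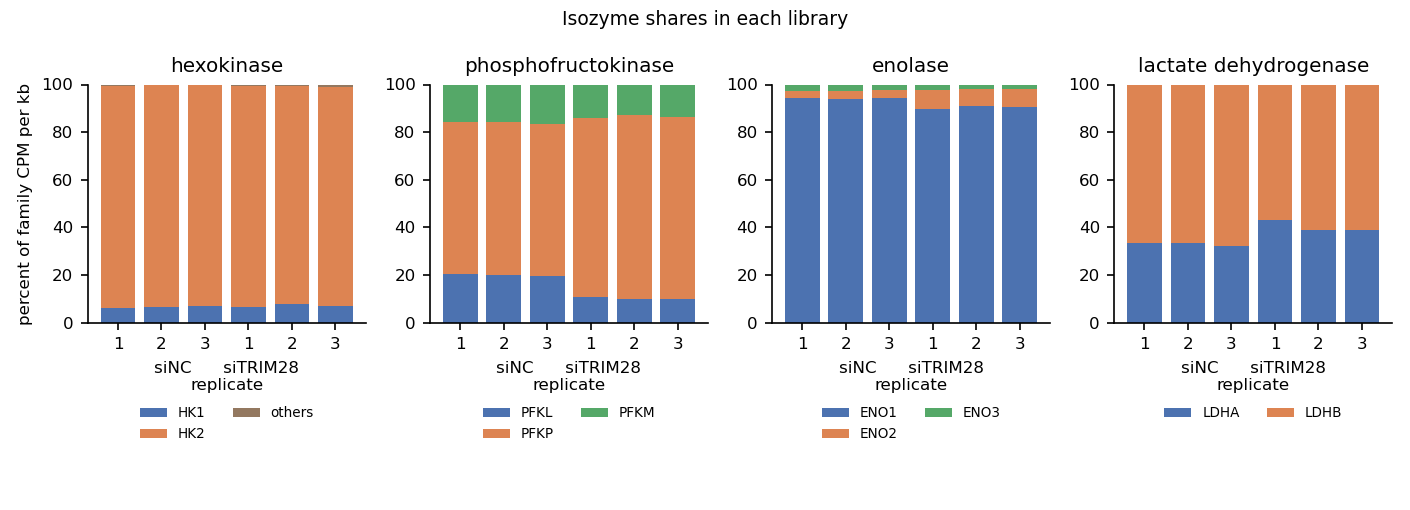
Share of each isozyme in the CPM per kilobase of its family, as stacked bars from 0 to 100 percent for siNC replicates 1 to 3 and siTRIM28 replicates 1 to 3, with isozymes under 1% in every library joined as others. PFKL narrows from 20.1% to 10.3% of phosphofructokinase and LDHA widens from 33.1% to 40.4% of lactate dehydrogenase on average, while HK2 stays at 91.5% or more of hexokinase in every library.

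By level, ENO1 leads the 10 genes in siNC with 477 CPM per kilobase, followed by LDHA (178), PKM (160.2), PGK1 (81.8), ALDOA (81.7), PFKP (33.6), HK2 (26.8), SLC2A1 (11.4), PFKL (10.6) and HK1 (1.94). PGK1 and ALDOA do not differ beyond their spread in siNC, but in siTRIM28 they stand at 128 ± 5.82 and 70.4 ± 2.23 CPM per kilobase. With the deposited gene lengths the order of the 10 is the same in both groups. With GENCODE v29 transcript lengths ALDOA lies above PGK1, PKM above LDHA, and HK2 below PFKL and SLC2A1 in siNC, whereas in siTRIM28 LDHA lies above PKM, PGK1 above ALDOA and SLC2A1 above PFKL. The 10 genes together take 0.623% ± 0.00088 of all counts in siNC and 0.770% ± 0.00737 in siTRIM28, a ratio of 1.24 with no overlap (exact two-sided permutation, p = 0.1).

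Beyond the 10, a list of 26 other genes of the route has 16 that pass the count minimum, of which 5 are higher (SLC2A3, ALDOC, ENO2, GPI and TPI1) and 3 lower (PGAM1, PGAM4 and ADPGK). Their median log2FC is 0.16. Over all genes tested, 41.8% are called, 21.3% as higher and 20.5% as lower. The same shares are the background for the counts in each list below. ADPGK, a kinase that phosphorylates glucose with ADP, falls from 13.0 ± 1.72 to 9.37 ± 0.0852 CPM (log2FC −0.47, adjusted p = 0.00386, edgeR). The remaining 8 that were tested do not pass the threshold.

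Regulators of the flux through phosphofructokinase and pyruvate dehydrogenase also differ in direction. Of 10 listed, 8 are tested, with 3 higher and 2 lower and a median of 0.08. PFKFB4, which makes and degrades the phosphofructokinase activator fructose 2,6-bisphosphate, rises from 7.15 ± 0.581 to 21.1 ± 0.960 CPM (log2FC 1.56, adjusted p = 9.67e-08, edgeR). Its relative PFKFB3, the form with the strongest kinase activity, falls by 0.40 on the log2 scale (adjusted p = 0.00023, edgeR). Pyruvate dehydrogenase kinases inhibit the pyruvate dehydrogenase complex, and among them PDK1 rises by 0.57 while PDK3 falls by 0.59 (adjusted p = 7.26e-05 and 0.000353, edgeR). TIGAR, a phosphatase that lowers fructose 2,6-bisphosphate, rises by 0.20 (adjusted p = 0.0312, edgeR), and the call is lost with DESeq2 (log2FC 0.19, adjusted p = 0.23).

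Lactate leaves the cell through monocarboxylate transporters. SLC16A3 encodes MCT4, the lactate exporter of glycolytic cells, and has 16.2, 15.6 and 14.9 CPM in siNC and 51.5, 44.5 and 41.9 CPM in siTRIM28. SLC16A1 encodes MCT1 and has 106, 107 and 113 CPM in siNC and 71.3, 74.5 and 72.1 CPM in siTRIM28. The carriers thus move in opposite directions, by 1.56 and −0.58 on the log2 scale (adjusted p = 9.67e-08 and 2.87e-06, edgeR). CSNK1D overlaps SLC16A3 on the opposite strand and lists 214% as many counts, so the level of SLC16A3 is uncertain. BSG, the chaperone of both carriers at the membrane, falls by 0.51 (adjusted p = 5.41e-06, edgeR). The other 3 of the 6 carrier genes do not pass the threshold, and the list has a median of −0.24.

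The pentose phosphate route branches off at glucose 6-phosphate and yields NADPH and ribose. Of its 7 tested genes 4 are lower, namely PGD from 145 ± 2.59 to 93.5 ± 1.99 CPM (log2FC −0.63, adjusted p = 5.59e-07, edgeR), RPIA (−0.85), PGLS (−0.58) and RPE (−0.28), and the median of the list is −0.28. PGD encodes a dehydrogenase that forms NADPH, and RPIA and RPE encode enzymes that interconvert pentose phosphates. PGLS has only 4.40 ± 0.959 CPM in siNC, and its call is lost with DESeq2 (adjusted p = 0.0811).

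Of 8 pyruvate dehydrogenase genes, all tested, DLAT falls from 38.9 ± 0.595 to 22.7 ± 1.56 CPM (log2FC −0.78, adjusted p = 3.31e-06, edgeR) and PDHA1 falls by 0.25, whereas the phosphatase gene PDP1 rises by 0.30. DLAT and PDHA1 encode core subunits of the complex. The median of the list is 0.06. Among 8 genes of gluconeogenesis only 4 are tested, and PC, the pyruvate carboxylase gene, is called at 0.24 (adjusted p = 0.0116, edgeR, and 0.0695 with DESeq2). FBP1, PCK1, G6PC1 and G6PC2 are below the count minimum, with at most 1 count in a library.

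Factors known to act on glycolytic promoters, regulators of HIF and other HIF targets make a list of 21 genes, of which 20 are tested. The list has 13 genes higher and 4 lower, with a median of 0.47. Over all genes tested, 21.3% are called higher and 20.5% lower. The higher genes include VHL (0.52) and EGLN1 (0.38), which encode regulators of HIF and are named after their values were seen. The 3 not called are ARNT, CA9 (0.44, adjusted p = 0.0973, edgeR) and ADM (0.11, adjusted p = 0.503, edgeR). BNIP3, a receptor for mitophagy, rises from 264 ± 7.55 to 518 ± 13.0 CPM (log2FC 0.97, adjusted p = 1.32e-08, edgeR). P4HA2, a subunit of collagen prolyl hydroxylase, has a log2FC of 0.93, the histone demethylase gene KDM3A one of 0.86 and ANKRD37 one of 0.82. The 4 lower genes are MYC (111 ± 6.16 to 63.4 ± 0.942 CPM, log2FC −0.81), the carbonic anhydrase gene CA12 (−0.56), EPAS1, which encodes HIF-2α (−0.46), and the prolyl hydroxylase gene EGLN2 (−0.46). HIF1A, named after its value was seen, is at 132 ± 4.18 and 151 ± 4.90 CPM (log2FC 0.19, adjusted p = 0.00556, edgeR), and its call is lost without siNC replicate 1 (adjusted p = 0.0551). HIF-1α is mostly controlled through the stability of its protein, which RNA does not show. ARNT, its partner, has a log2FC of −0.00.

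The list of glucose-sensing genes includes MLXIP, which encodes the transcription factor MondoA. It also includes the classical MondoA targets TXNIP and ARRDC4, relatives of arrestin that limit glucose uptake. Sensing itself is not measured by these RNA levels. TXNIP has 40.8, 40.9 and 38.8 CPM in siNC and 8.998, 8.28 and 7.09 CPM in siTRIM28. ARRDC4 has 13.2, 15.5 and 15.1 CPM in siNC and 4.78, 4.56 and 6.17 CPM in siTRIM28. Both are lower in every siTRIM28 library, with log2FCs of −2.30 and −1.50 (adjusted p = 6.12e-09 and 2.45e-06, edgeR). MLXIP itself has a log2FC of −0.86 (adjusted p = 5.63e-06, edgeR), and MLXIPL is below the count minimum. These 3 are all the genes of that list that are tested.

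For SLC2A1, the gene of the 10 with the largest change, the 5 genes with the most similar log2 CPM over the 6 libraries are PHLDA1, RSRP1, TMEM158, P4HA2 and FTH1, with Pearson's r of 0.999 for each among 4017 genes compared. The points are 6 libraries in 2 groups, so any strong and tight rise gives a high r. P4HA2 is also on the list of HIF factors, regulators and targets.

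**Figure D4:**
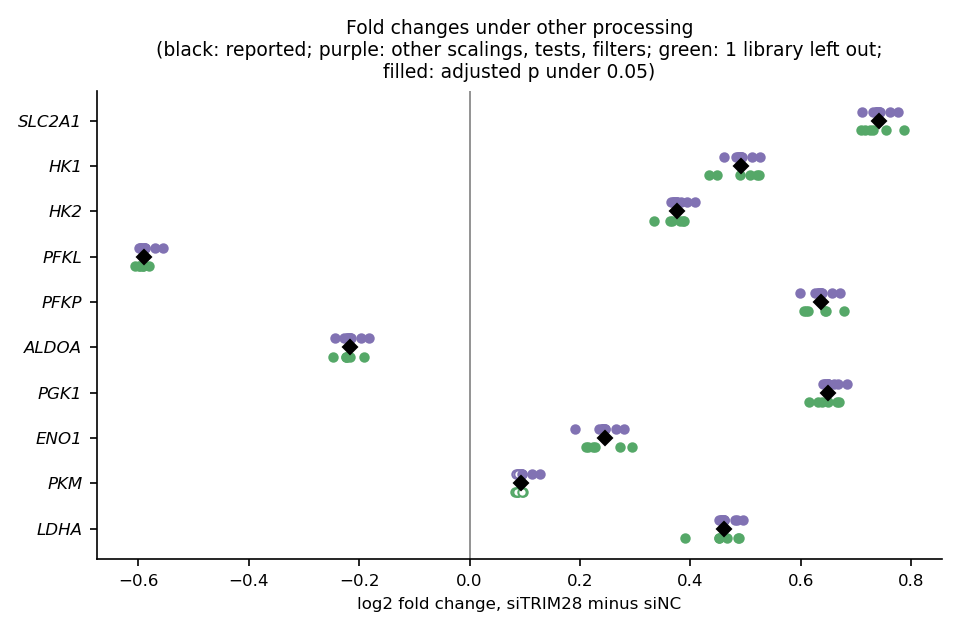
Log2FC of each of the 10 genes as reported (black diamond), under other scalings, tests and filters (purple) and with each library left out in turn (green), filled where the adjusted p is under 0.05. No gene changes direction, and PKM, at 0.08 to 0.13, is the only gene of the 10 with open symbols.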

How the data were processed

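For 6 libraries of T24 poly(A) RNA (stranded kit) the authors deposited unscaled counts for each gene, beside GRCh38 coordinates and gene lengths. The submitters' processing notes list fastp 0.23.1, STAR 2.7.6a and featureCounts. Strand setting, annotation release and treatment of duplicate or multiply mapped reads are not given in the sources used here. A further deposited table of RPKM values covers only genes that the authors chose as differentially expressed, and it is not used.

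Groups and replicate numbers are taken from the labels. After TMM scaling, edgeR 4.0.16 (limma 3.58.1, R 4.3.3) is used for the test by glmQLFit and glmQLFTest with condition as the only term, over the 18474 genes that reach 10 counts in 3 or more libraries. The Benjamini-Hochberg threshold is 0.05, and 0.58 is the log2 fold change that the study used as a threshold in its public cohorts. Standard errors are |log2 fold change| over √F. The common biological coefficient of variation is 0.0733, and counting precision rests on the 11712623 to 14018052 counts per library. Isozyme shares use CPM per kilobase of deposited gene length, and log2 CPM for ratios and permutation tests has a prior count of 2. The edgeR, DESeq2 and limma-voom tests were checked on simulated counts beforehand, and the permutation test on a short made-up example.

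The 10 genes and all lists were chosen with earlier results of these data known. Named are all 10, their isozymes and missing steps, up to 4 called genes of each other list by absolute log2 fold change, any gene counted among 5 or fewer, and the 5 genes most like the member with the largest change among those with a mean of at least 500 counts. Some genes of the lists are left out by name and are not reported here. Promoter windows come from RefSeq (GRCh38.p14). The close libraries are counted as separate replicates, as they are labelled. They differ by only slightly more than sampling noise (chi-square per degree of freedom 1.08 and 1.24), which cannot show that they are independent cultures. If they are not, standard errors and p-values are too small. As alternatives, scaling is by RLE, by the upper quartile or by total counts, the test is DESeq2 1.42.0 or limma-voom, and the others are looser and stricter filters, a replicate block, leaving out each library, close pairs summed, stricter thresholds, pseudogene counts added, another pseudocount, and other gene lengths, of which GENCODE v29 was added after seeing the data. Plots use Python 3.11.15, matplotlib 3.10.9, pandas 2.3.3 and numpy 2.4.6.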

Additional observations from a re-analysis of the deposited data

How the results depend on the processing

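None of the results reversed. Beside the absolute log2 fold change of 0.58, which leaves 3 of the 10 genes higher and 1 lower (1757 and 1387 of all genes), the count of the 10 called higher is 7 or 8 and that called lower is 2 under every other test, scaling, filter and left-out library. The call of PKM is the difference. Its log2FC is 0.0883 with DESeq2 (adjusted p = 0.214), 0.0838 without a filter (0.0567), 0.0880 with the close pairs summed (0.178) and 0.0832 to 0.0977 with each library left out (up to 0.129). The cause was not tested. DESeq2 calls 5878 genes in all, beside 7723 with edgeR. Upper-quartile scaling gives 56.6% of calls as higher, beside 51.1%, and the median of all genes stays within 0.1 of 0 under each scaling.

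Deviations of same-numbered libraries from their group means correlate at 0.0523, −0.0118 and 0.0374, and those of other pairs at −0.0655 to 0.0387. With 3 libraries in a group, of which 2 are close, this cannot decide whether replicate numbers pair the cultures. With the replicate block PKM has a log2FC of 0.0938 (adjusted p = 0.0549, edgeR), the other 9 of the 10 genes keep their calls, and 7910 genes are called in all.

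The difference in the ratio of ALDOC to ALDOA is 1.62 with a pseudocount of 0.5 CPM, as ALDOC has few counts. The change in share depends on the gene length used. With GENCODE v29 transcript lengths it is 2.04 percentage points for SLC2A3, −15.2 for PFKL, 16.2 for PFKP and 2.78 for ENO2, and with counts not divided by length it is −10.9 for PFKL and 3.70 for ENO2. Of 1079 refits of 72 further named genes, 20 lose a call and 12 gain one. GAPDH is called with upper-quartile and total-count scaling, without a filter, with the block and without siTRIM28 replicate 1, while TIGAR, PGLS, PC and HIF1A lose theirs in some refits.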
